A study of Triticum aestivum with 12 samples.

Results

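The flag leaf transcriptomes of AAC Starbuck and AAC Tradition, the bread wheat (Triticum aestivum) varieties whose β-diketone accumulation the study describes as somewhat higher, were compared with those of AAC Concord and AAC Magnet. The study's own wax measurements did not differ significantly in β-diketones among these varieties, so high and low name the pairs here and not a tested difference in wax. Genes were included when at least 3 of the 12 libraries had a normalized count of at least 10. Outside the study's list of 39 wax genes, 44015 of the 107411 genes in the table met this rule. The 11 wax genes that also met it were left out of every count below. AAC Starbuck (Western ecozone, later release), AAC Tradition (Eastern ecozone, earlier release), AAC Concord (Western, earlier) and AAC Magnet (Eastern, later) were each represented by 3 libraries from untreated control plants. All 4 are spring wheats without a transgene or an induced mutation in the sample labels. The labels describe leaves collected from field plots, whereas the methods of the study describe a greenhouse, and where the plants grew was not tested. Each pair therefore holds a Western and an Eastern variety, as well as an earlier and a later release.

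β-Diketones are waxes of the plant surface that give wheat leaves and stems a blue-grey bloom, and in wheat their synthesis depends on the W1 locus, a cluster of neighbouring biosynthesis genes on chromosome 2B with a related cluster on 2D. Bread wheat is hexaploid, so most genes have related copies, called homoeologues, on the corresponding chromosomes of the A, B and D subgenomes. Varieties share long stretches of chromosome when they descend from the same parent, and genes on a stretch that differs between varieties can differ in level together. The identifiers used here give the chromosome and a number that increases along it, so the order of genes is known but not the distance between them.

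The replicates of a variety measure the spread between its own libraries, and nothing in the labels says how separate the plants were. Each β-diketone class holds only 2 varieties. An exact permutation test over varieties could not go below a two-sided p of 0.33, so the p-values below concern these 4 varieties and do not test β-diketone content. The normalized counts of a library summed to between 5077330 and 5902642, and 58024 to 61166 genes were above 0. Low values lay on steps that were taken as 1 read, worth 0.798 to 1.24 normalized counts by library. At a listed 0, up to 3 reads cannot be told from none by counting error alone, which is 2.39 to 3.72 normalized counts. None of the identifiers matched the gene table used for names (0 of 155467 entries), so genes are given by identifier without a function, leaf marker genes could not be checked, and homoeologous genes could not be paired.

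A single library stood apart on a single chromosome. In AAC Concord replicate 1, the 1131 genes of chromosome 2D with a mean of at least 50 had a median of 0.535 times their mean in the other AAC Concord libraries. The median stayed between 0.497 and 0.553 in each of 10 consecutive parts of the chromosome, and 91.3% of these genes were under 0.75 times, against 8.15% of the genes on the other placed chromosomes. On the other 20 chromosomes the medians of this library were 0.990 to 1.03. Apart from AAC Concord on 2D, the 249 medians of a library on a chromosome lay between 0.964 and 1.03. The cause was not tested, and counts of DEGs on 2D are also given without this library.

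**Figure D1:**
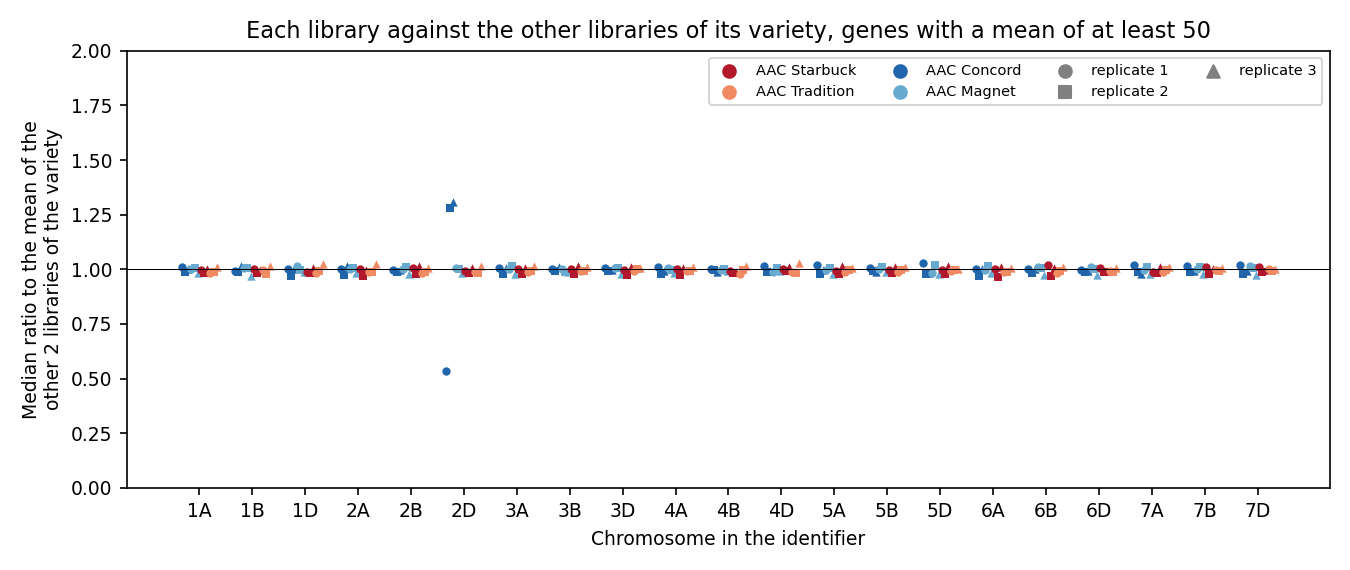
Median ratio of each library to the mean of the other libraries of its variety (y axis) on each of the 21 chromosomes (x axis), over genes with a mean of at least 50, where colours are varieties and symbols are replicates. AAC Concord replicate 1 is at 0.535 on 2D, which also raises the ratios of AAC Concord replicates 2 and 3 there, and the other points lie near 1.

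The first question was how many genes differed between the high and the low β-diketone varieties. Differentially expressed genes (DEGs) were those with an adjusted p-value under 0.05 and a difference above 1 or below -1 on the log2(normalized count + 1) scale, from 1 limma fit with a mean for each variety. Outside the wax list, 2482 genes were DEGs (5.64% of the genes tested). Of these, 1647 (3.74%) were higher and 835 (1.90%) were lower in AAC Starbuck and AAC Tradition. The median difference was 1.70 among the higher DEGs and -1.67 among the lower DEGs on the log2 scale. Over all genes tested the median difference was 0.0015, the median size of the difference was 0.194 and the median standard error was 0.170. Differences beyond 2 in either direction were found in 862 DEGs, and beyond 4 in 81. Without the limit on the difference, 4422 genes (10%) passed the adjusted p-value. DEGs were mostly genes of low level, since 634 of the 2482 (25.5%) had a mean of at least 50, compared with 47.5% of the genes tested.

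Most of these DEGs did not separate each high variety from each low variety. All 6 libraries of one pair were above all 6 of the other for 666 DEGs, 452 higher and 214 lower, and for 1131 genes (2.57%) among all genes tested. When each variety of the high pair was compared with each of the low pair, 323 genes (0.734%) were DEGs in the same direction in all 4 comparisons, 216 higher (0.491%) and 107 lower (0.243%) in the high varieties. All 323 were among the 2482 DEGs, and 320 had no overlap between the 6 and 6 libraries. In 256 of the 323, neither AAC Starbuck and AAC Tradition nor AAC Concord and AAC Magnet differed by the same rule. Of the other DEGs, 259 were called in 3 of the comparisons, 1617 in 2, 232 in 1 and 51 in none. The single comparisons had 3959 DEGs (8.99%) for AAC Starbuck against AAC Concord, 2690 (6.11%) for AAC Starbuck against AAC Magnet, 3103 (7.05%) for AAC Tradition against AAC Concord and 2732 (6.21%) for AAC Tradition against AAC Magnet. Within the pairs, AAC Starbuck and AAC Tradition differed in 2187 genes (4.97%) and AAC Concord and AAC Magnet in 4077 (9.26%). These comparisons share libraries. When variety was instead a random effect, which puts the spread between varieties of a pair into the error, 272 genes were DEGs of the pairs, and with a mean per pair only 739 were. A mean per pair treats the libraries of a variety as independent, and the random effect uses a single correlation for all genes. Neither count therefore rests on variety as the unit.

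The pattern across the varieties was described by the widest gap between their ordered means. The gap lay between the pairs in 643 DEGs (25.9%), 437 higher and 206 lower in the high pair, whereas it lay between the pairs in 8.36% of all genes tested. AAC Concord stood alone at the low end in 545 DEGs (22.0%, against 12.3% of all genes tested), and AAC Magnet did so in 265 (10.7% against 8.57%). AAC Starbuck stood alone at the high end in 218 (8.78% against 8.32%) and AAC Tradition in 174 (7.01% against 7.16%), both near the percentage over all genes tested. Among DEGs lower in the high pair, AAC Concord was alone at the high end in 184 and AAC Magnet in 156. These were 7.41% and 6.29% of all DEGs, against 10.4% and 9.0% of all genes tested. AAC Starbuck was alone at the low end in 151 (6.08% against 8.48%) and AAC Tradition in 134 (5.40% against 8.13%). Since the gap and the call use the same values, these counts describe the DEGs and are not a test.

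The other ways of dividing the varieties 2 against 2 gave counts of the same order. Western against Eastern varieties gave 2187 DEGs (4.97%), and later against earlier releases gave 2565 (5.83%). In all 4 comparisons there were 153 DEGs (0.348%) for Western against Eastern and 313 (0.711%) for later against earlier release, beside the 323 of the high and low varieties. The same 12 libraries enter all 3 divisions, and the difference between these counts was not tested. The high-low difference of the Western varieties, AAC Starbuck minus AAC Concord, differed from that of the Eastern varieties, AAC Tradition minus AAC Magnet, in 5958 genes (13.5%) at an adjusted p-value under 0.05. No limit on the difference applies to this count, unlike the 2565, and without that limit the pairs gave 4422 genes (10%). With 4 varieties this interaction cannot be told apart from later against earlier release. It was called in 1269 of the DEGs (51.1%) and in 59 of the 323 genes called in all 4 comparisons.

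Genes were named when they were DEGs of the pairs and in all 4 comparisons, had a mean of at least 50 and did not overlap between the 6 and 6 libraries. Of the 95 such genes, 67 were higher and 28 lower in the high varieties, and chromosome 5B held 21 of them, followed by 2B with 10 and 3A with 9. Of the 44015 genes tested, these chromosomes held 2362, 2379 and 2220. The 10 most increased and the 10 most decreased are described. Of the 10 higher genes 6 are on 5B, and of the 10 lower genes 3 are on 2B.

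TraesCS5B02G417700 had normalized counts of 527, 459 and 378 in AAC Starbuck and 539, 556 and 789 in AAC Tradition, and it was listed at 0 in all 6 libraries of AAC Concord and AAC Magnet (adjusted p = 1.1e-11). Its neighbour TraesCS5B02G417500 had 242, 157 and 185 in AAC Starbuck and 222, 218 and 269 in AAC Tradition, and was also at 0 in every library of the low varieties (adjusted p = 2.5e-11). The groups did not come near each other for either gene. TraesCS5B02G299700 was at 130, 127 and 133 in AAC Starbuck and 165, 125 and 154 in AAC Tradition (adjusted p = 1.1e-11). TraesCS4A02G127700 was at 134, 132 and 133 in AAC Starbuck and 100.4, 92.3 and 106 in AAC Tradition (adjusted p = 7.8e-12). TraesCS5D02G522100 was at 132, 109 and 93.5 in AAC Starbuck and 103, 80.5 and 91.8 in AAC Tradition (adjusted p = 4e-11). These 3 genes were likewise at 0 in all 6 libraries of the low varieties, so no fold change is given.

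TraesCS5B02G535400 had 170, 198 and 165 in AAC Starbuck and 181, 126 and 125 in AAC Tradition, and among the low libraries it was above 0 in 1, AAC Magnet replicate 2, at 1.20 (adjusted p = 1.6e-09). The nearby TraesCS5B02G535100 had 247, 394 and 341 in AAC Starbuck and 440.0, 447 and 509 in AAC Tradition. It was at 0 in AAC Concord but at 71.2, 74.0 and 57.8 in AAC Magnet, so the low varieties differed from each other (log2 difference between the pairs 5.55, standard error 0.13, adjusted p = 5e-10). With variety as a random effect this gene was not called (adjusted p = 0.081). TraesCS5B02G569800 had 146, 131 and 89.5 in AAC Starbuck and 138, 124 and 135 in AAC Tradition, whereas the low libraries ranged from 0 to 1.88 (log2 difference 6.14, standard error 0.29, adjusted p = 1.2e-07). All 3 lie on the last part of 5B and were high in both high varieties.

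TraesCS6D02G003900 had 336, 304 and 275 in AAC Starbuck, 234, 274 and 299 in AAC Tradition and 0 to 11.9 in the low libraries (log2 difference 5.86, standard error 0.44, adjusted p = 6.3e-06). TraesCS6A02G052400 met the rule although the high varieties were far apart. It had 5.76, 9.35 and 5.59 in AAC Starbuck, 1994, 1802 and 1793 in AAC Tradition and 0 to 1.78 in the low libraries (log2 difference 6.34, standard error 0.26, adjusted p = 3.2e-08). The call was lost with a mean per pair only (adjusted p = 0.068) and with variety as a random effect (adjusted p = 0.16). AAC Tradition alone was high for this gene, and the interaction between ecozones was -7.37 on the log2 scale (standard error 0.51, adjusted p = 3.2e-06).

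Among the genes lower in the high varieties, TraesCS2B02G030200 had 0, 0 and 0 in AAC Starbuck, 1.24, 0 and 0 in AAC Tradition, 104, 66.8 and 134 in AAC Concord and 375, 320.1 and 297 in AAC Magnet (log2 difference -7.30, standard error 0.23, adjusted p = 3.9e-09). The next gene, TraesCS2B02G030300, had 34.4, 48.5 and 88.7 in AAC Concord and 249, 198 and 215 in AAC Magnet, against 0 in 5 high libraries and 2.06 in AAC Starbuck replicate 2 (log2 difference -6.50, standard error 0.30, adjusted p = 1e-07). Both were higher in AAC Magnet than in AAC Concord. TraesCS4B02G032700 had 82.7 to 120.5 in the low libraries and 0 to 3.11 in the high libraries (log2 difference -6.16, standard error 0.35, adjusted p = 6e-07). TraesCS2B02G627900, near the other end of 2B, had 611, 619 and 622 in AAC Concord and 59.7, 66.7 and 72.9 in AAC Magnet, against 4.78 to 11.4 in AAC Starbuck and 0 to 1.24 in AAC Tradition (log2 difference -5.88, standard error 0.24, adjusted p = 3.3e-08). AAC Concord was the highest for this gene, and AAC Magnet lay between it and the high varieties.

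TraesCS5D02G536900 had 95.7 to 133 in the low libraries and 1.99 to 5.75 in the high libraries (log2 difference -4.77, standard error 0.16, adjusted p = 7.7e-09). TraesCS2D02G468900 had 27.1, 10.4 and 17.6 in AAC Starbuck, 36.0, 22.9 and 67.5 in AAC Tradition, 219.6, 610.2 and 699 in AAC Concord and 594, 571 and 409 in AAC Magnet (log2 difference -4.19, standard error 0.35, adjusted p = 1.7e-05). Its lowest value in a low variety was in AAC Concord replicate 1, the library with low values along 2D, and without that library the difference was -4.45 (adjusted p = 9.3e-06). TraesCS5D02G401500 had 8.05 to 19.8 in AAC Starbuck, 79.5 to 208 in AAC Tradition, 261 to 508 in AAC Concord and 773 to 914 in AAC Magnet. The libraries of the varieties of each pair thus did not overlap either. By limma, AAC Starbuck and AAC Tradition differed (log2 difference -3.03, adjusted p = 0.00091). AAC Concord and AAC Magnet were not called (-1.12, adjusted p = 0.089). TraesCS6B02G084400 showed the same order within the high pair, with 40.5 to 49.5 in AAC Starbuck and 154 to 177 in AAC Tradition, against 1051 to 1109 in AAC Concord and 669 to 758 in AAC Magnet (log2 difference -3.32, standard error 0.10, adjusted p = 1.9e-09). TraesCS5B02G351200 had 79.5 to 210.5 in the high libraries and 833 to 1272 in the low libraries. TraesCS5B02G519300 had 11.2 to 18.9 and 102 to 139, and the interaction between ecozones was 0.02 for this gene (adjusted p = 0.97).

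**Figure D2:**
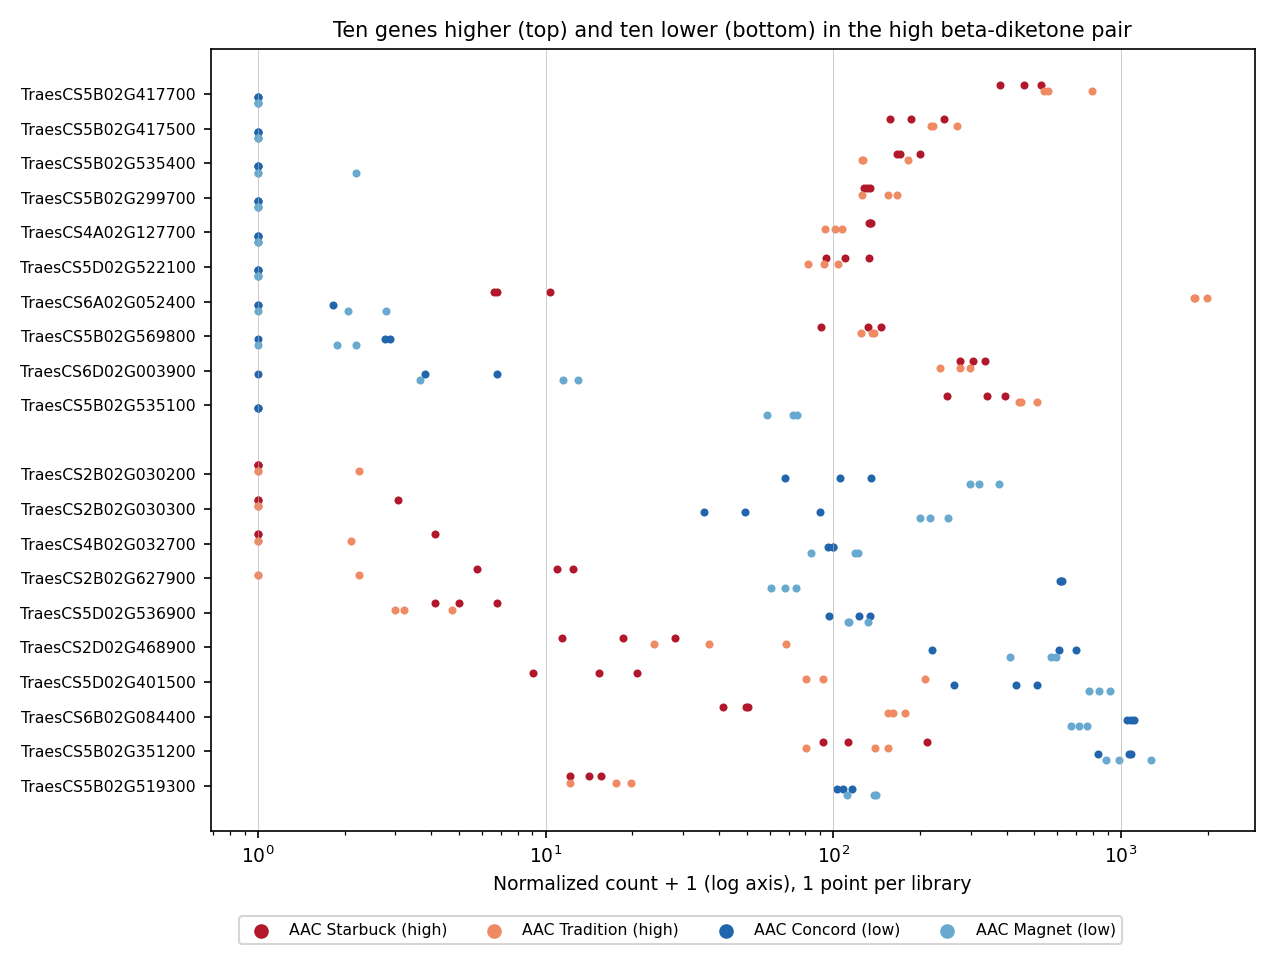
Normalized count + 1 in each library (x axis, log scale) of the 20 named genes (y axis), coloured by variety, with the 10 genes higher in the high β-diketone pair above and the 10 lower genes below. Each gene has no overlap between the pairs, whereas TraesCS6A02G052400 is far higher in AAC Tradition than in AAC Starbuck.

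Some genes were read in a single pair. At 0 in all 6 low libraries and above 0 in all 6 high libraries were 31 genes, and 16 showed the reverse. All 47 were DEGs, as the rule that picks them makes likely, and 46 were called in all 4 comparisons. Chromosome 5B held 7 of the 31 and 5D held 5, whereas 2B held 4 of the 16 and 6B held 3. The 44015 genes tested included 2362 on 5B, 2417 on 5D, 2379 on 2B and 1878 on 6B. The 3 highest of the 31 were TraesCS5B02G417700, TraesCS5B02G417500 and TraesCS5B02G299700, described above. The 3 highest of the 16 were TraesCS4A02G300800, with 45.02, 11.6 and 34.6 in AAC Concord and 155, 109 and 173 in AAC Magnet, TraesCS7D02G086500, with 32.5 to 61.4 in AAC Concord and 45.1 to 55.1 in AAC Magnet, and TraesCS2B02G030000, with 29.1 to 47.0 and 29.8 to 32.9. What the listing at 0 reflects was not tested.

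The DEGs were unevenly distributed over the chromosomes. The B subgenome had 1004 DEGs among 14423 genes tested (6.96%), the A subgenome 739 of 14406 (5.13%) and the D subgenome 664 of 14649 (4.53%). The order was the same for genes called in all 4 comparisons, with 149 (1.03%) on B, 97 (0.673%) on A and 72 (0.491%) on D. Without AAC Concord replicate 1 the D subgenome had 594 DEGs (4.06%), 65 of its genes were called in all 4, and the order of the subgenomes was the same for both. The highest percentages of a chromosome were on 2B (201 DEGs, 8.45%), 6B (153, 8.15%) and 5B (177, 7.49%), and the lowest on 4D (50, 2.87%) and 5A (71, 3.14%). Genes of unplaced sequence had 75 DEGs among 537 genes tested. The B copy had the highest percentage in groups 1, 2, 3, 5 and 6, though 1A and 1B were nearly equal at 5.84% and 5.87%. The B copy was not the highest in groups 4 and 7.

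For genes called in all 4 comparisons, 5B rather than 2B was the first chromosome. Chromosome 5B held 51 of the 323, 35 higher and 16 lower in the high varieties, which was 2.16% of its genes tested. It was followed by 2B with 28 (1.18%), 5D with 25 (1.03%), and 3A and 4B with 21 each (0.946% and 1.19%). In contrast, the A chromosome of the fifth group had 9 (0.398%). As a group, 5A, 5B and 5D had 5.08% DEGs of the pairs, under the 5.64% of all genes tested, but 1.21% of genes called in all 4 comparisons. Chromosome 6B, with 8.15% DEGs, had 17 genes called in all 4 (0.905%).

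**Figure D3:**
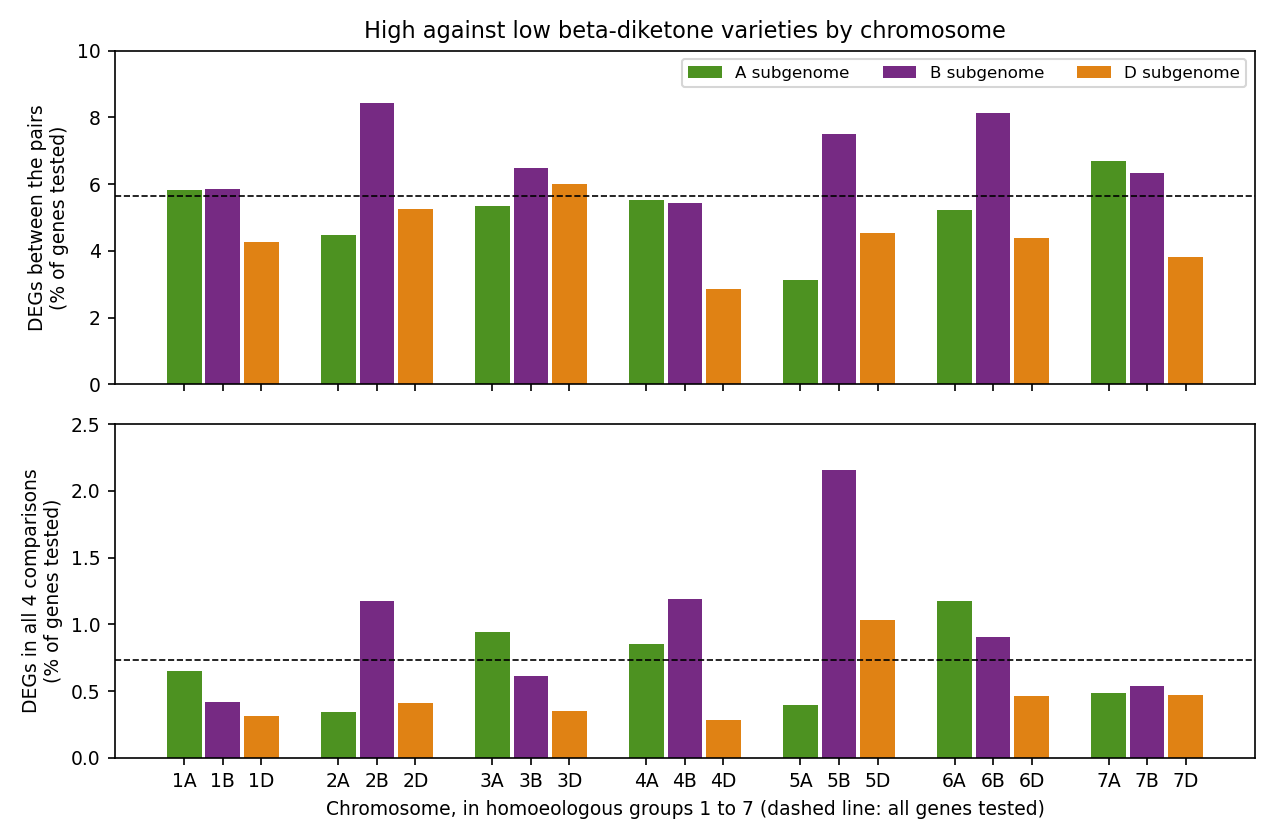
Percentage of the genes tested on each chromosome (x axis, in homoeologous groups 1 to 7, coloured by subgenome) that were DEGs between the pairs (upper panel) or in all 4 comparisons (lower panel), with the percentage over all genes tested as a dashed line. The upper panel is highest on 2B at 8.45% and the lower panel on 5B at 2.16%.

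Most DEGs of every chromosome were higher in the high varieties, from 55.4% of the DEGs on 3B to 81.2% on 3D. On 2D, 98 of 127 DEGs were higher (77.2%), and the median difference over its genes was 0.137 on the log2 scale, the largest shift of a placed chromosome. Without AAC Concord replicate 1, the median of 2D was -0.003, and it had 102 DEGs, 71 higher and 31 lower, of which 96 were also DEGs with all libraries. Of its genes 10 were called in all 4 comparisons, and 9 without that library. On 3D, the percentage that were higher stayed at 81.7% without that library. Of the 138 DEGs of 3D, 43 were in a single segment at its end, and AAC Concord stood alone at the low end in 35 of these.

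Neighbouring genes were often DEGs together. Of 2406 DEGs with a further gene tested on the same chromosome, 470 (19.5%) were followed by a DEG, compared with 5.54% of all placed genes, and 364 (15.1%) by one of the same direction. The percentage was 15.7% for the gene 2 places on, 12.6% for 5, 11.5% for 10, 9.49% for 20 and 8.00% for 50 places on. Among genes called in all 4 comparisons, 49 of 318 (15.4%) were followed by another, against 0.731% of placed genes, and 50 places on it was 3 of 296 (1.01%). Where the next gene was called in all 4 comparisons as well, the direction was the same in 37 of 49.

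Runs of consecutive DEGs of the same direction held 614 of the 2407 placed DEGs (25.5%). There were 64 runs of at least 3 genes and 26 of at least 4. The longest had 10 genes, TraesCS2B02G044700 to TraesCS2B02G045700, all higher in the high pair. In each gene of this run the widest gap set AAC Concord below the other varieties. TraesCS2B02G045700 had 137, 138 and 79.9 in AAC Starbuck, 129, 141 and 105 in AAC Tradition and 155, 155 and 119 in AAC Magnet. It had 0, 0.825 and 0 in AAC Concord. TraesCS2B02G045300 had 31.8 to 126 in the high libraries, 58.5 to 69.4 in AAC Magnet and 0 in AAC Concord. TraesCS2B02G044900, TraesCS2B02G045200 and TraesCS2B02G045400 followed the same pattern, with at most 0.938 in AAC Concord and at least 26.7 in each library of the other varieties. TraesCS2B02G044700 was the member with reads in each AAC Concord library, at 16.9, 13.2 and 11.5, against 105 to 148 elsewhere. TraesCS2B02G044800, TraesCS2B02G045000 and TraesCS2B02G045100 were at 0 in AAC Concord and at lower levels, up to 27.6, in the other varieties. TraesCS2B02G045600 was also at 0 in AAC Concord, but AAC Magnet was low as well. It had 5.34 to 10.75 in AAC Magnet, against 15.5 to 85.1 in the high libraries. This gene and TraesCS2B02G045200 did not overlap between the pairs. None of the 10 was called in all 4 comparisons.

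The second longest run had 8 genes, TraesCS3B02G054300 to TraesCS3B02G057000, all higher in the high pair. TraesCS3B02G054700 separated the pairs, with 39.1 to 53.7 in the high libraries and 0 to 0.889 in the low libraries (log2 difference 5.43, standard error 0.16, adjusted p = 3.4e-09). TraesCS3B02G056100 and TraesCS3B02G056600 were at 49.5 to 85.6 in the high libraries, at 6.33 to 17.9 in AAC Magnet and at no more than 1.91 in AAC Concord. For TraesCS3B02G054300, TraesCS3B02G055700, TraesCS3B02G055835, TraesCS3B02G056500 and TraesCS3B02G057000, AAC Concord had at most 1.65 and AAC Magnet was nearer to the high varieties on the log2 scale. Even so, TraesCS3B02G057000 did not overlap between the pairs, with 8.85 to 23.9 in the high and 0 to 8.38 in the low libraries. The run thus joined genes that separated the pairs with genes that were low in AAC Concord.

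The third run had 7 genes, TraesCS2B02G030000 to TraesCS2B02G030700, all lower in the high pair, of which 6 were called in all 4 comparisons. TraesCS2B02G030000 and TraesCS2B02G030100 were at 0 in all 6 high libraries, and at 29.1 to 47.0 and 19.9 to 37.3 in the low libraries. TraesCS2B02G030600 had 1.04 to 4.12 in the high libraries and 13.1 to 16.01 in the low libraries, and TraesCS2B02G030700 had 41.3 to 89.3 and 117 to 172. The pairs did not overlap for these genes. TraesCS2B02G030400 was the exception, with 106, 115 and 114 in AAC Magnet and 0 in the other 9 libraries. TraesCS2B02G030200 and TraesCS2B02G030300, described above, lie between them.

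Windows of 50 consecutive genes tested were used to find longer segments. Windows in which at least 28.2% of genes were DEGs, 5 times the percentage over all genes tested, joined into 15 segments with 1396 genes and 428 DEGs, or 17.8% of the placed DEGs. All but 1 of the 15 lay within the outer 20% of a chromosome by identifier number. Over the genome, the outer 20% at each end held 32.6% of the placed genes tested and 54.9% of the placed DEGs. The percentage of DEGs was 9.32% there and 3.70% in the inner part. Genes called in all 4 comparisons were divided in nearly the same way, with 1.23% in these outer parts and 0.492% in the inner part. The exception was the segment from TraesCS5B02G332500 to TraesCS5B02G363500, in the interior of 5B. Segments were chosen by DEGs of the pairs, so the counts by comparison given below describe them and are not a test.

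**Figure D4:**
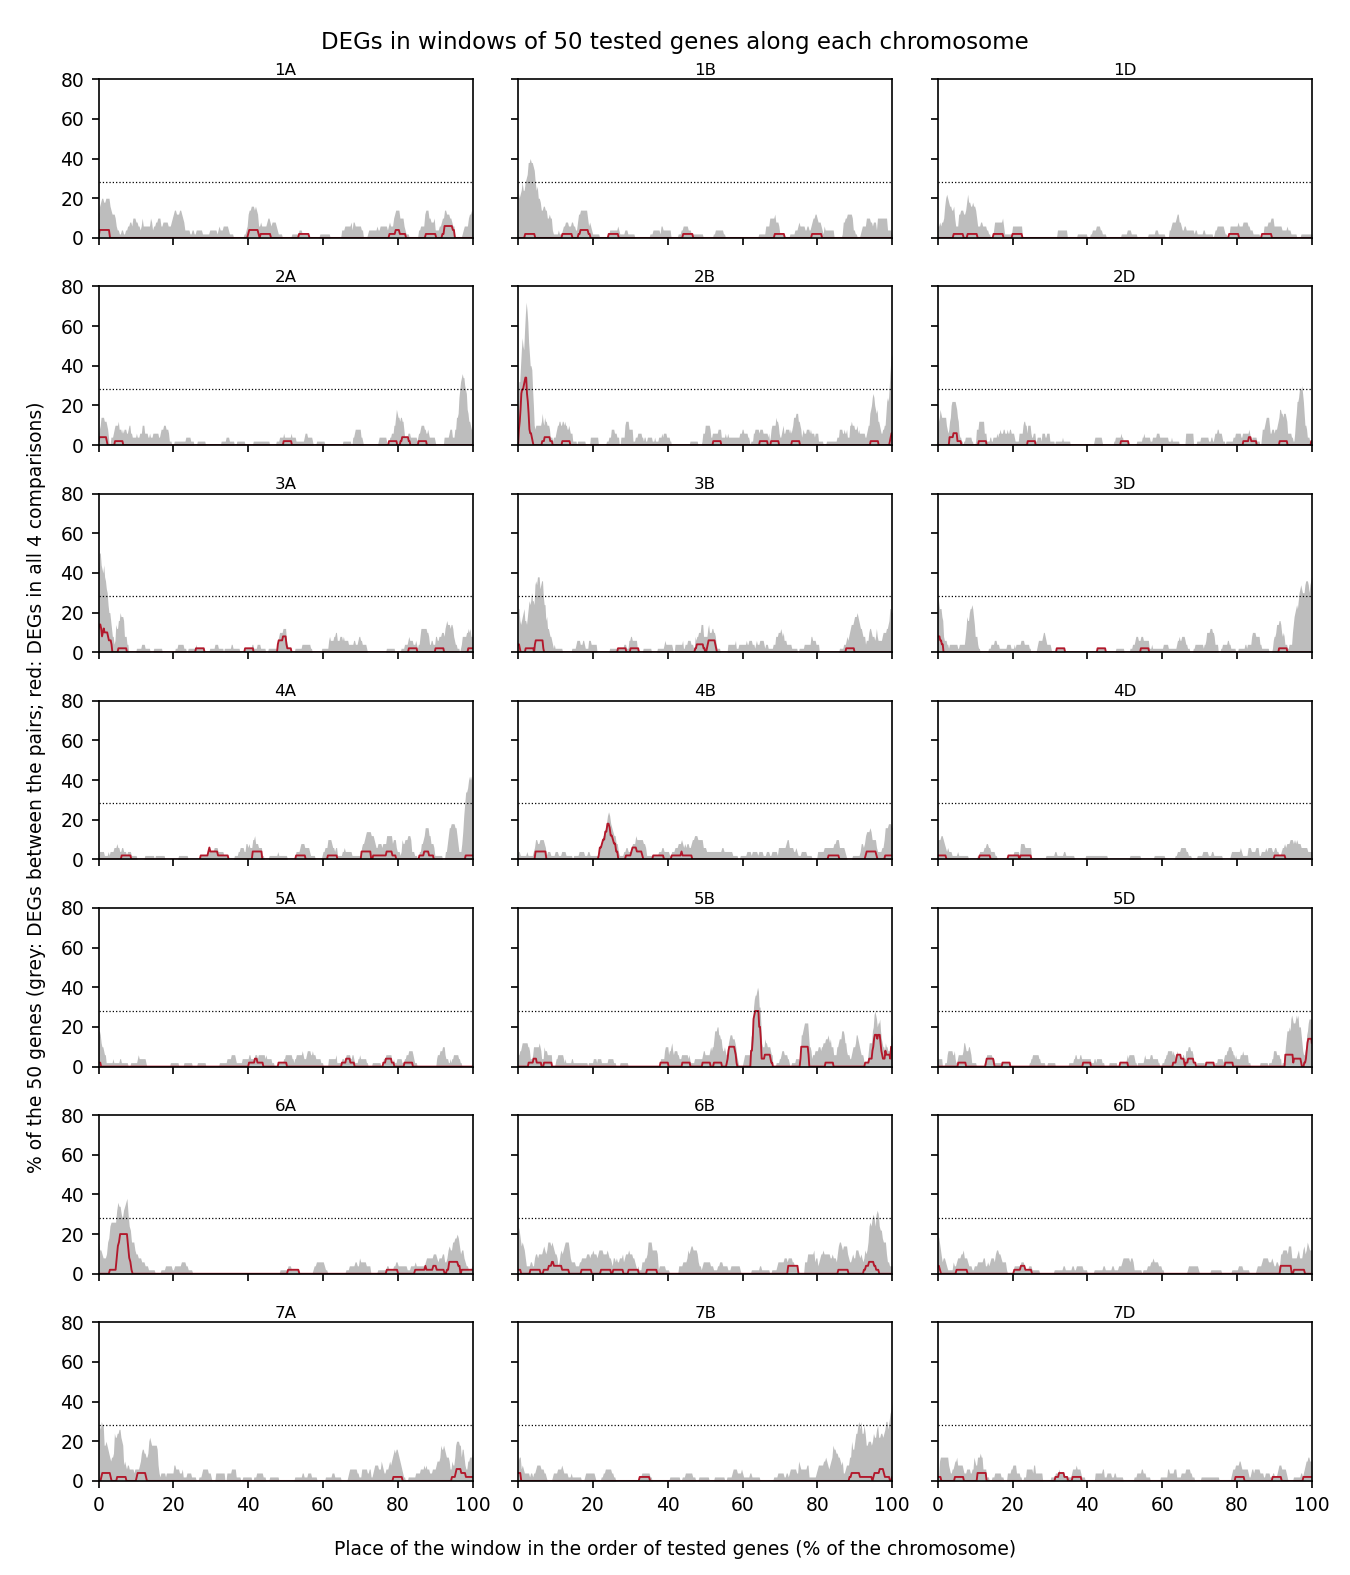
Percentage of 50 consecutive genes tested (y axis) that were DEGs between the pairs (grey) or in all 4 comparisons (red), by the place of the window along each of the 21 chromosomes (x axis), with the 28.2% limit dotted. The highest grey peak is at the start of 2B at 72.0%, and the red line is highest there at 34.0% and in the interior of 5B at 28.0%.

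The densest window, TraesCS2B02G027000 to TraesCS2B02G045300, had 72.0% DEGs. It lay in a segment of 135 genes at the start of 2B with 52 DEGs, 37 higher and 15 lower in the high pair, of which 17 were called in all 4 comparisons. The widest gap was between the pairs in 16 of these DEGs, and AAC Concord was alone at the low end in 22. Within the segment, 60 genes were DEGs between AAC Starbuck and AAC Concord, 62 between AAC Tradition and AAC Concord, 38 between AAC Starbuck and AAC Magnet and 32 between AAC Tradition and AAC Magnet, but also 50 between AAC Concord and AAC Magnet and 32 between AAC Starbuck and AAC Tradition. The DEGs with the highest mean were TraesCS2B02G005300, TraesCS2B02G030200 and TraesCS2B02G030700. TraesCS2B02G005300 had 28.3 to 37.9 in AAC Concord and 147 to 203 in the other 9 libraries. At the same relative positions, 9 of 117 genes on 2A (7.69%) and 19 of 126 on 2D (15.1%) were DEGs, against 38.5% on 2B. Such corresponding parts are equal fractions of the largest identifier number tested on each chromosome. Whether they are homoeologous stretches was not tested. Without AAC Concord replicate 1 there were 15 on 2D (11.9%).

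The second densest window lay in the segment TraesCS3A02G000900 to TraesCS3A02G035500 at the start of 3A, where 37 of 102 genes were DEGs, 11 of them in all 4 comparisons and 16 with the gap between the pairs. Here 27 to 35 genes were DEGs in each comparison across the pairs, against 6 between AAC Starbuck and AAC Tradition and 20 between AAC Concord and AAC Magnet. The DEGs with the highest mean were modest in size: TraesCS3A02G024300 had 148 to 356 in the high and 86.2 to 141 in the low libraries, TraesCS3A02G012200 had 59.1 to 102 and 147 to 427, and TraesCS3A02G023200 had 56.4 to 125 and 136 to 233. None overlapped between the pairs, though none was called in all 4 comparisons. The corresponding parts of 3B and 3D had 21.5% and 17.2% DEGs, both above the percentage over all genes tested.

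The third, TraesCS2B02G607300 to TraesCS2B02G630100 at the other end of 2B, had 24 DEGs of 68 genes and was mainly a difference of AAC Concord from the other varieties, which stood alone at the low end in 14 of them. TraesCS2B02G611700 had 14.02 to 19.7 in AAC Concord and 198 to 323 elsewhere, TraesCS2B02G620800 had 11.3 to 28.9 and 174 to 364, and TraesCS2B02G624600 had 5.77 to 26.3 and 135 to 376. The corresponding parts of 2A and 2D had 6.90% and 4.41% DEGs, the latter 2.94% without AAC Concord replicate 1.

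Several other segments also followed 1 variety. At the end of 3D, 35 of 43 DEGs were low in AAC Concord alone, and of the 126 genes there 88, 74 and 86 were DEGs when AAC Concord was compared with AAC Starbuck, AAC Tradition and AAC Magnet, against 4 between AAC Starbuck and AAC Magnet, 16 between AAC Tradition and AAC Magnet and 14 between AAC Starbuck and AAC Tradition. AAC Starbuck was alone at the low end in 16 of 21 DEGs at the end of 2A and in 12 of 15 at the end of 2D. AAC Tradition was alone at the low end in 17 of 27 DEGs at the start of 1B, AAC Magnet in 16 of 25 at the end of 4A, and AAC Concord in 13 of 17 at the start of 7A. The ends of 2A and 2D were both dense in DEGs and followed the same variety, since the positions of the 2A segment had 22.2% DEGs on 2D and 9.52% on 2B. Without AAC Concord replicate 1 these 2D positions had 19.4%, and 13 of the 15 DEGs in the segment at the end of 2D were called. In general the parts at the same relative positions on the other chromosomes of a group had lower percentages than the segment itself. They ran from 3.33% to 22.2%, apart from 29.9% on 2A at the positions of the 2D segment. Salmon divides reads among similar copies, so the values of close homoeologues are uncertain, and what this contributed was not tested.

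**Figure D5:**
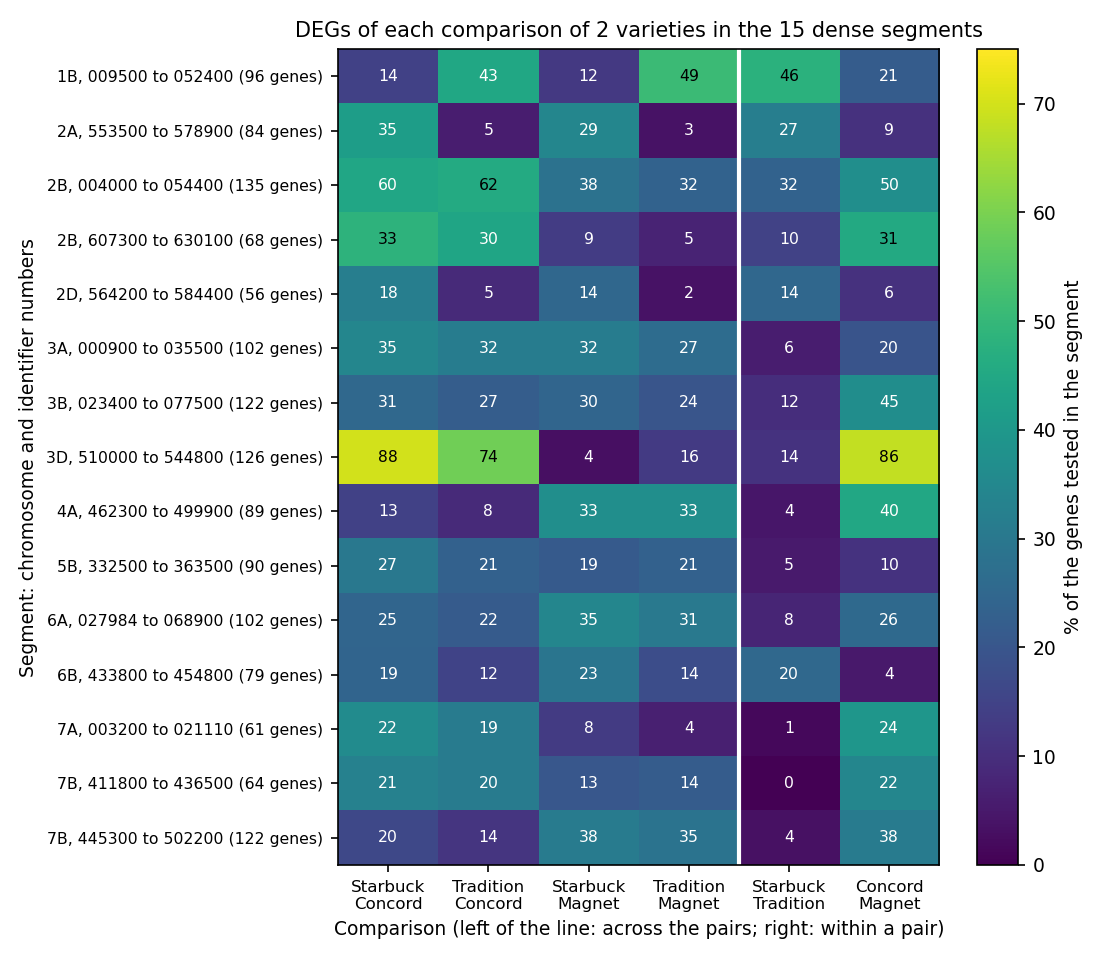
Number of DEGs (printed) and percentage of the genes tested (colour) in each of the 15 dense segments (y axis, chromosome and identifier numbers) for each comparison of 2 varieties (x axis, across the pairs to the left of the white line and within a pair to the right). At the end of 3D the comparisons with AAC Concord hold 74 to 88 of 126 genes, whereas in the interior of 5B the comparisons across the pairs hold 19 to 27 of 90 and those within a pair 5 and 10.

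The interior segment of 5B followed the pairs. Of its 21 DEGs, 14 were called in all 4 comparisons and 15 had the gap between the pairs. Among its 90 genes, 19 to 27 were DEGs in each comparison across the pairs, 5 between AAC Starbuck and AAC Tradition and 10 between AAC Concord and AAC Magnet. The corresponding parts of 5A and 5D had 4.11% and 7.78% DEGs. By genes called in all 4 comparisons, the densest windows were TraesCS2B02G022700 to TraesCS2B02G043600 with 17 of 50 (34.0%), TraesCS5B02G334700 to TraesCS5B02G356300 with 14 (28.0%), TraesCS6A02G037900 to TraesCS6A02G058200 with 10, TraesCS4B02G089700 to TraesCS4B02G101500 with 9 and TraesCS5B02G523700 to TraesCS5B02G538000 with 8, all beside 0.734% over the genome. In the window of 4B, each of the 4 comparisons across the pairs had 12 DEGs. There were 3 between AAC Starbuck and AAC Tradition and 2 between AAC Concord and AAC Magnet. The segment and the windows were chosen by calls across the pairs, so these counts describe them and are not a test. In the window near the end of 5B, all 8 were higher in the high varieties, and it holds TraesCS5B02G535100 and TraesCS5B02G535400.

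The genes next to the W1 clusters were described because the wax genes themselves are outside this comparison. No gene outside the wax list was tested between the first and last listed genes of either cluster. On 2B, 3 of the 8 genes tested before the cluster and 6 of the 25 after it were DEGs, and on 2D, 2 of the 25 before and 7 of the 25 after, beside 5.64% over all genes tested. The 2 of 25 are close to that percentage. These flanks lie at chromosome starts, and the first 20% of the chromosomes by identifier number had 8.99% DEGs. The 25 genes after the cluster on 2B, and part of those before it, lie in the dense segment described above (38.5% DEGs). The counts on 2B are therefore not separate from that segment, and an excess particular to the W1 clusters was not tested. The flanks on 2B and 2D had 2 DEGs with a mean per pair only and 0 with variety as a random effect (19 of the 83 genes had an unadjusted p under 0.05 in limma). The share of all genes tested at that unadjusted limit is not given, so the 19 are not read as an excess. None of the 18 was called in all 4 comparisons, and TraesCS2D02G026600 was the 1 DEG among them without overlap between the pairs. Without AAC Concord replicate 1, the DEGs on 2B were 2 and 6, and on 2D they were 2 and 6.

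On 2B, AAC Concord differed from the other varieties in most of these DEGs. TraesCS2B02G005400, the gene tested nearest to the start of the cluster, had 131, 252 and 147 in AAC Starbuck, 161, 129 and 115 in AAC Tradition, 1.88, 0 and 0 in AAC Concord and 132, 90.8 and 40.02 in AAC Magnet (log2 difference 3.83, standard error 0.35, adjusted p = 2.9e-05). The neighbouring TraesCS2B02G005300, described above, was also low in AAC Concord alone, as were TraesCS2B02G013500, TraesCS2B02G013600 and TraesCS2B02G016000. After the cluster, TraesCS2B02G007500 and TraesCS2B02G007600 were instead highest in AAC Concord, at 30.5 to 48.9 and 65.7 to 121. TraesCS2B02G015700 was read in AAC Tradition alone, at 208, 204 and 353, and was at 0 in the other 9 libraries. TraesCS2B02G000100 was at 737 to 951 in AAC Tradition and 51.1 to 245 elsewhere, and its call (adjusted p = 0.036) was lost when any of 8 libraries was left out. AAC Magnet, the other low variety, was close to the high varieties in several of these genes.

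On 2D, the DEGs after the cluster were mostly highest in AAC Starbuck. TraesCS2D02G025400 had 70.9, 140.4 and 54.5 in AAC Starbuck, 61.0, 18.9 and 37.5 in AAC Tradition, 22.4 to 31.5 in AAC Concord and 7.19 to 13.7 in AAC Magnet. TraesCS2D02G025500 had 54.3 to 133 in AAC Starbuck and 0.889 to 21.8 elsewhere. TraesCS2D02G017900, TraesCS2D02G021300, TraesCS2D02G021500 and TraesCS2D02G025700 were also higher in the high pair, with overlap between the pairs. TraesCS2D02G026600 was lower, with 0 to 1.24 in AAC Tradition, 9.34 to 11.5 in AAC Starbuck and 15.5 to 20.6 in the low libraries. Before the cluster, TraesCS2D02G006500 was highest in AAC Starbuck at 12.4 to 31.3, and TraesCS2D02G008900 was at 0 in AAC Concord and 4.19 to 15.9 elsewhere. Without AAC Concord replicate 1, TraesCS2D02G021500 was not called (adjusted p = 0.068).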

How the data were processed

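Total RNA of flag leaves was sequenced by the authors as paired reads of 150 cycles. The authors removed bases with Trimmomatic where a window of 5 fell under quality 20, dropped reads shorter than 75, estimated transcript abundance with Salmon on IWGSC RefSeq v2.1 and used DESeq2 for their comparisons. Versions are not given in the sources used here. The deposited signal values are normalized counts under RefSeq v1.1 identifiers, and how the authors normalized them is not stated. Between 88.8% and 93.2% of low values were within 0.05 of a whole step, so whole reads were not claimed and no count model was run. The depth estimated from the steps was 4482891 to 7094689 reads per library.

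Libraries were assigned to varieties by their labels, and varieties to β-diketone classes as the study describes them. Limma 3.58.1 (R 4.3.3) was fitted to log2(normalized count + 1) of 44026 genes with a mean for each variety (residual degrees of freedom 8, prior 2.80), with Benjamini-Hochberg adjusted p-values over all of them. The interaction was (AAC Starbuck minus AAC Concord) minus (AAC Tradition minus AAC Magnet). The fit was run on simulated counts in which some genes with a mean of 50 or more were changed. The simulation had no spread between the varieties of a pair, so it cannot show how the fit handles that spread. Chromosomes, neighbours, runs and windows were counted in Python 3.11.15 with pandas 2.3.3, without a test. Named genes were the 10 highest and 10 lowest by difference among genes called in all 4 comparisons without overlap and with a mean of 50 or more, the members of the 3 longest runs, the 3 DEGs of highest mean in each of the 3 densest segments, the DEGs among up to 25 genes on each side of the W1 clusters, and the 3 highest genes at 0 in 1 pair in each direction.

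The alternatives were pseudocounts of 0.5 and 5, no filter, a mean of at least 50, libraries scaled to the same total or upper quartile, the replicate number as a block, a trend in the prior variance, a mean per pair only, variety as a random effect, no limit on the difference, other windows, and each library left out. Members, lists and tests were chosen with earlier results of these data known. Same-numbered libraries of different varieties had residual correlations of -0.139 to 0.212 over 18 pairs (median 0.0294). Libraries with other numbers had -0.227 to 0.184 over 36 pairs (median -0.0067). The ranges overlapped, and the numbers were not taken to pair the libraries. Sequences and homoeologous triads were not analysed here.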

Additional observations from a re-analysis of the deposited data

Results flagged for a closer look

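The high-low difference was not the same in the Western and the Eastern varieties for 38 of the 69 genes named, by limma's interaction (AAC Starbuck minus AAC Concord) minus (AAC Tradition minus AAC Magnet) at an adjusted p under 0.05 over all genes tested, where it was called in 13.5%. The 69 were chosen by their differences, runs and segments, so their count is not set against that percentage. A positive value means that high minus low was greater, or less negative, in the Western varieties. The values are on the log2(normalized count + 1) scale and, with 4 varieties, cannot be told apart from later against earlier release.

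Among the genes called in all 4 comparisons with the largest differences, the interaction was -7.37 for TraesCS6A02G052400, 5.56 for TraesCS5B02G535100, 2.57 for TraesCS2B02G030300, -1.90 for TraesCS5D02G401500 and -2.40 for TraesCS6B02G084400. It was 2.39 for TraesCS4A02G300800, which was at 0 in both high varieties and lower in AAC Concord than in AAC Magnet.

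In the 10 genes of the longest run on 2B the values were 3.08 for TraesCS2B02G044700, 3.54 for TraesCS2B02G044800, 5.96 for TraesCS2B02G044900, 3.11 for TraesCS2B02G045000, 4.97 for TraesCS2B02G045100, 5.32 for TraesCS2B02G045200, 7.46 for TraesCS2B02G045300, 5.95 for TraesCS2B02G045400, 4.82 for TraesCS2B02G045600 and 6.76 for TraesCS2B02G045700. AAC Concord was low in each. In the run on 3B the values were 2.56 for TraesCS3B02G054300, 6.71 for TraesCS3B02G055700, 4.82 for TraesCS3B02G055835, 3.20 for TraesCS3B02G056100, 5.63 for TraesCS3B02G056500, 3.68 for TraesCS3B02G056600 and 3.64 for TraesCS3B02G057000, whereas TraesCS3B02G054700 was not called (-0.41, adjusted p = 0.46). In the run on 2B that separated the pairs, TraesCS2B02G030400, read in AAC Magnet alone, had 6.82.

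In the dense segments the values were 2.28 for TraesCS2B02G005300, -1.24 for TraesCS3A02G024300, 1.25 for TraesCS3A02G023200, 3.71 for TraesCS2B02G620800, 3.51 for TraesCS2B02G611700 and 5.54 for TraesCS2B02G624600. Beside the W1 clusters they were -4.33 for TraesCS2B02G000100, 6.14 for TraesCS2B02G005400, 2.60 for TraesCS2B02G013500, 2.75 for TraesCS2B02G013600, -7.95 for TraesCS2B02G015700, 3.04 for TraesCS2B02G016000, 3.48 for TraesCS2D02G008900 and 2.65 for TraesCS2D02G026600.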

How the results depend on the processing

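The 2482 DEGs (1647 higher, 835 lower) were 739 (505, 234) with a mean per pair only and 272 (176, 96) with variety as a random effect. Both place the spread between varieties of a pair in the error, but neither has variety as the unit. A mean per pair treats the libraries of a variety as independent. The random effect used a single limma correlation within a variety, 0.315, for all genes. The DEGs were 653 (438, 215) at means of 50 or more, of which fewer were tested, and 4422 (2655, 1767) without the limit on the difference. Leaving out 1 library gave 2210 to 2463. The 323 genes called in all 4 comparisons were 101 at means of 50 or more. The interaction gave 4431 to 5586 genes without 1 library, beside 5958.

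Relative to the percentage over all genes tested, the B subgenome had 1.23 times for DEGs and 1.41 times for genes called in all 4 comparisons, the D subgenome 0.804 and 0.670, 5B 1.33 and 2.94, 2D 0.931 and 0.564, group 2 1.08 and 0.880, and group 5 0.902 and 1.64. At means of 50 or more, 2B went from 1.5 to 1.76 and 4D from 0.509 to 0.357. A DEG was followed by a DEG 3.53 times as often as placed genes are DEGs, 21.1 times for genes called in all 4, 5.12 times at means of 50 or more, and 3.46 to 3.93 times without 1 library. The 15 segments were 32 with windows of 25, 7 with windows of 100 and 56 for genes called in all 4, where 2 of 50 genes reach the limit. The 18 DEGs beside the W1 clusters were 2 with a mean per pair only and 4 at means of 50 or more. They were 0 by limma with variety as a random effect (19 of 83 genes tested there at an unadjusted p under 0.05, not set against all genes).

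No named gene changed direction, and 26 of 69 kept their call in every alternative run on them. With a mean per pair only 34 kept it, and with variety as a random effect 26; of the 20 with the largest differences this lost TraesCS6A02G052400 (adjusted p = 0.16) and TraesCS5B02G535100 (0.081). Without 1 library, 6 lost it: TraesCS3A02G023200, TraesCS2B02G000100, TraesCS2B02G007600, TraesCS2D02G021300, TraesCS2D02G021500 and TraesCS2D02G025700. The replicate block gave 2491 DEGs, 338 in all 4 comparisons, and under it TraesCS2B02G000100 lost its call (1.36, adjusted p = 0.066). Of the 12 libraries, 7 correlated best with one of their own number. For chromosomes, neighbours, W1 flanks and the interaction, the block and the fits without 1 library were chosen after seeing the data, as was the random effect for named genes. Values up to 2.39 to 3.72 normalized counts, by library, are within 3 reads of 0.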
